A study of Bos taurus with 9 samples.

Results

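The sodium pump beta subunits ATP1B1, ATP1B2 and ATP1B3 and the pump regulators FXYD1 and FXYD2 were followed in bovine nucleus pulposus cells under salt stress. The members were all probe sets that the platform annotation assigns to a single one of these 5 symbols, which gave 6 probe sets out of 13292 that carry a single gene and 24016 in all outside the manufacturer's controls. ATP1B3 has 2 of them and the other genes have 1 each. The cells came from caudal intervertebral discs of young calves and were grown as cultures in DMEM with serum. Of the 9 arrays, 3 were of untreated cells (control), 3 of cells brought to 500 mOsm/kg with added salt for 5 h, and 3 of cells held so for 24 h. Within a group the labels speak of biological replicates, but whether each had its own animal is not said, and the p-values cover only the variation among cultures. Control cells have no stated time and were compared with both salt times, so hours in culture and hours in salt cannot be told apart, and the comparisons at 5 h and at 24 h share their controls. In bulk RNA of this kind, fewer cells of a type and less RNA per cell cannot be told apart either.

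The sodium pump, Na,K-ATPase, uses ATP to export sodium and import potassium, and so sets the ion gradients on which cell volume and many transporters depend. Its catalytic alpha subunit reaches the plasma membrane only with a beta subunit, a glycoprotein that folds and stabilises it and tunes its potassium affinity. FXYD proteins are small membrane proteins that bind the assembled pump and adjust its affinity for sodium, potassium or ATP in a tissue-specific way. Disc cells live in a matrix whose fixed charge draws in sodium and water, so their surroundings are salty and change with load.

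FXYD2 rose steeply by 24 h and no other member was called against control. At 5 h, 0 of 6 member probe sets were called in limma (adjusted p below 0.05, Benjamini-Hochberg over all 18012 tested probe sets), where 0.483% of all were called. None had an unadjusted p under 0.05, where 7.21% did. At 24 h, 1 of 6 was called against control, where 8.61% of all tested probe sets were, and 1 of 6 was called between 24 h and 5 h, where 14.2% were. The called probe set was that of FXYD2 each time. The median log2 change of the 6 was 0.17 at 5 h and 0.14 at 24 h, beside -0.03 and 0.023 over all tested probe sets.

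Arrays of the same replicate number resembled each other across groups, and the arrays numbered 3 stood apart from the other 6. The same fit was therefore also run with the replicate number as a block, which compares arrays of equal number. It is given, by gene or as a count over a list, beside many of the results whose call it changes. Not every such change is printed, least often those between the salt times, so silence does not mean an unchanged call. The blocked fit called 0, 1 and 2 members in the 3 comparisons, beside 5.86%, 35.8% and 43.8% of all probe sets. The mean of the BioB hybridisation control probe sets was between 224 and 253.1 on the arrays numbered 3 and between 330.1 and 419.4 on the others. The log2 ratio of the 3-prime to the 5-prime actin probe set, a sign of RNA length, was 2.69 to 3.39 in control and 5 h arrays and 3.73 to 4.02 at 24 h, while that of GAPDH lay between -0.178 and 0.0567 on all arrays. The part of RNA length in the changes at 24 h was not tested. Of 15 nucleus pulposus markers 9 had a probe set, of which KRT8, KRT19 and CA3 lay below the filter on dim probe sets and HIF1A, ACAN, CDH2, VCAN, COL2A1 and KRT18 passed it. Of these 0 were called at either time against control or between the salt times, with 0, 2 and 2 at an unadjusted p under 0.05. With the replicate block 3 of the 6 rose at 24 h against control, namely the cartilage proteoglycan ACAN by 1.35 (adjusted p = 0.00041), the related VCAN by 0.79 (0.00115) and HIF1A by 0.29 (0.0442). Between the salt times the same 3 rose and CDH2 fell under the block.

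**Figure D1:**
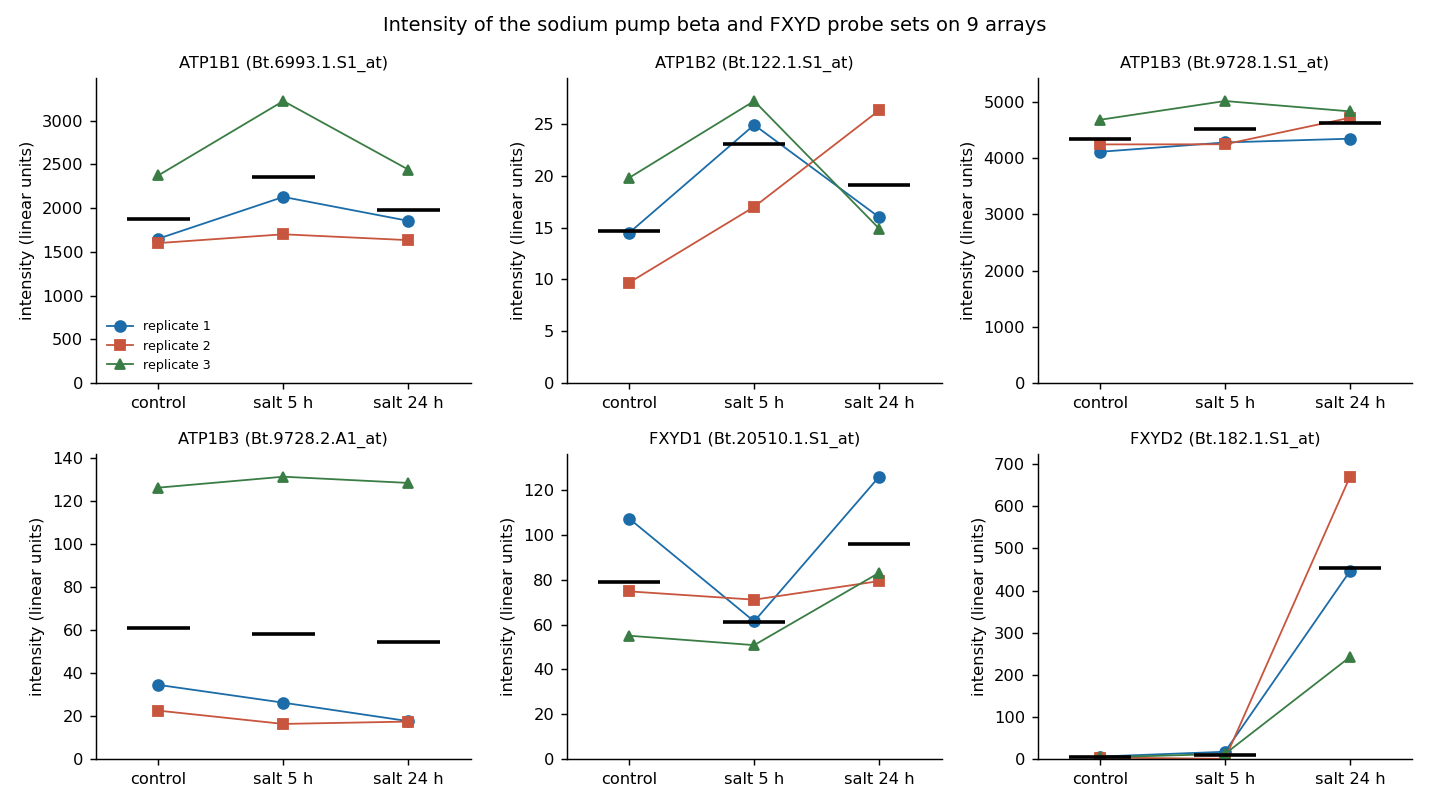
Intensity in linear units (vertical axes, each starting at 0) of the 6 member probe sets on the 9 arrays, with arrays of the same replicate number joined by a line and the mean of each group as a black bar. FXYD2 is at 17 or less on the 6 control and 5 h arrays and at 242 to 670.3 at 24 h; the probe sets of ATP1B1 and ATP1B3 are set mainly by the replicate number, with number 3 on top.

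FXYD2 (NCBI gene 281773), the gamma subunit of the pump, is best known from the kidney tubule, where it lowers the pump's affinity for sodium, and raised salt is known to induce it in cultured cells of the renal medulla. In disc cells its intensity was 5.6, 3.3 and 3.6 in control replicates 1 to 3. It was 17, 0.1 and 11.9 at 5 h. It was 446.1, 670.3 and 242 at 24 h. The control and 5 h arrays overlapped near the floor of the array, and every 24 h array lay above all of them; 13.9% of all tested probe sets were likewise above control without overlap at 24 h. The group means were 4.17 ± 1.25, 9.67 ± 8.67 and 452.8 ± 214.2 (SD, n = 3).

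At 24 h the rise of FXYD2 over control was 4.43 ± 0.37 on the log2(value + 16) scale (SE; 95% interval 3.59 to 5.27; limma adjusted p = 0.00165). The constant 16 is added before the logarithm to steady dim values, and because FXYD2 sat near 0 without long salt exposure its fold depends on that constant: with 1 in its place the change was 6.36, and with 64 it was 2.83. At 5 h FXYD2 stood at 0.29 ± 0.37 (95% interval -0.55 to 1.13; limma adjusted p = 1). Between the salt times it rose by 4.14 ± 0.37 (limma adjusted p = 0.0018). By replicate number the 24 h arrays exceeded control by 4.42, 5.15 and 3.72. On the 6 arrays numbered 1 and 2, an alternative added after the values were seen, the rise over control was 4.79 ± 0.33 (limma adjusted p = 0.000719). The order of the levels was thus 24 h above both other groups, with 5 h and control not separated.

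FXYD2 passed the filter through its 24 h arrays: its mean was 4.33 in control and 4.62 at 5 h on the log2 scale, where the filter stood at 5.05, so a call was likely once it passed. With no filter its adjusted p at 24 h was 0.00153. Of the array's probe sets, it ranked between the 2.1 and the 85.7 percentile across the 9 arrays. Of 9 listed markers of kidney and other transporting epithelium, 8 had a probe set, 5 passed the filter and 0 were called in any of the 3 comparisons, with or without the replicate block (limma; 0 at an unadjusted p under 0.05 without it). Their summed intensity was 179.1 to 278.3 in control, 198.1 to 200.3 at 5 h and 200.5 to 341.9 at 24 h, and the strongest was PAX8, a transcription factor of kidney and thyroid, with means of 109.2, 91.5 and 149.6. EPCAM, UMOD and ESRP1 lay below the filter with group means of 6.93 or less. Markers of macrophages and other leukocytes moved at 24 h, with sums of 224.5 to 250 in control and 432.2 to 468.8 at 24 h, a shift that lay in CD14 (95.6 to 285.6), the only 1 of 6 tested markers called. With the block CSF1R was also called, but at 5 h, where it was higher than control by 0.67 (adjusted p = 0.0301). Between the salt times CSF1R changed by -0.56 with the block (adjusted p = 0.0123). Its means were 14.8 in control, 33.2 at 5 h and 16.9 at 24 h. The part of these markers in the FXYD2 result was not tested.

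**Figure D2:**
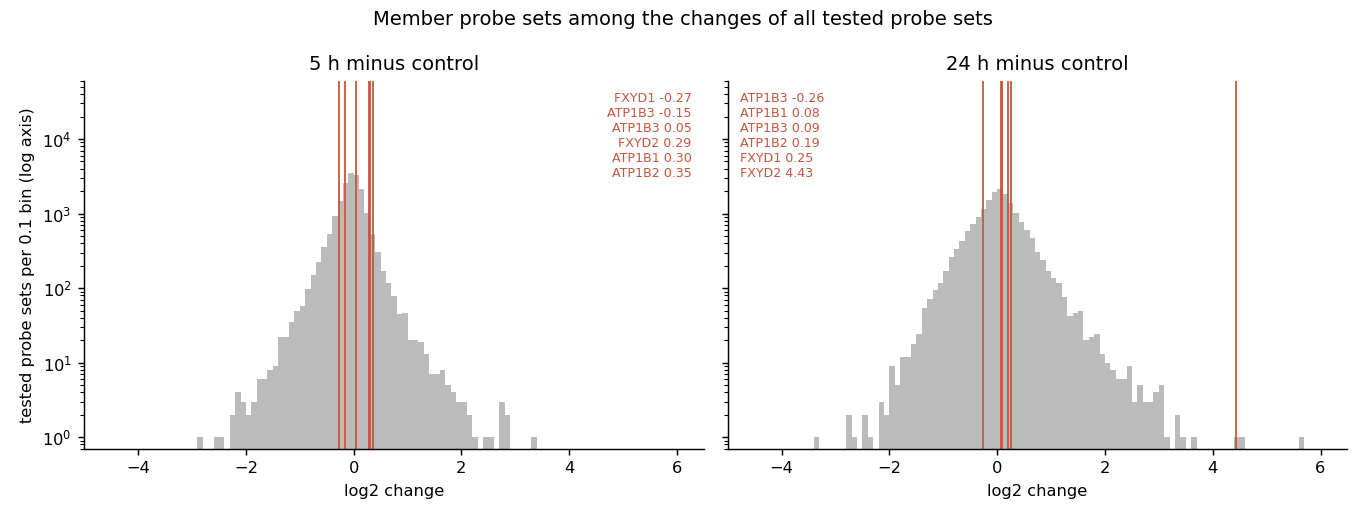
Number of tested probe sets (log axis) per bin of log2 change at 5 h and at 24 h against control, with a line for each of the 6 member probe sets and its change printed. At 5 h the members lie between -0.27 and 0.35. ATP1B2, ATP1B1 and FXYD2 stand there at the 93.9, 92 and 91.6 percentile of all changes. At 24 h FXYD2 stands at 4.43 and the other 5 lie between -0.26 and 0.25.

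The genes whose log2 profile over the 9 arrays was most like that of FXYD2 were HSPB2, a small heat shock protein (Pearson r = 0.989), the mitochondrial protease HTRA2 (0.982), the signalling adaptor TRAF1 (0.981) and the pseudokinase TRIB2 (0.980). Their log2 changes were between -0.09 and 0.08 at 5 h, and at 24 h they rose by 1.53, 1.21, 0.78 and 1.05 (limma adjusted p from 0.0039 to 0.0199). A profile of 3 high and 6 low arrays gives high correlations with any gene that changes late, and the arrays share culture, replicate number and scaling, so these values only describe likeness.

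FXYD1 (NCBI gene 616139), phospholemman, is the main FXYD partner of the pump in heart and skeletal muscle, where its phosphorylation relieves inhibition of the pump. Its intensity was 107.3, 74.8 and 55 in control replicates 1 to 3. It was 61.4, 71.1 and 50.8 at 5 h. It was 126, 79.4 and 83.1 at 24 h. The 5 h values lay low and the 24 h values high, with control spread over both, so that only 24 h and 5 h did not overlap; 18.1% of all tested probe sets were higher at 24 h than at 5 h without overlap.

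Against control FXYD1 stood at -0.27 ± 0.25 on the log2 scale at 5 h (limma adjusted p = 1) and at 0.25 ± 0.25 at 24 h (limma adjusted p = 0.646). Between 5 h and 24 h it differed by 0.53 ± 0.25 (95% interval -0.04 to 1.09; limma adjusted p = 0.207), which was not called. With the replicate block this difference was 0.53 ± 0.16 and was called (adjusted p = 0.025). It was lost again when the block was combined with arrays centred on their median (0.37, adjusted p = 0.0726) or with quantile normalisation (0.37, adjusted p = 0.0777), both added after the values were seen. By replicate number it was lower at 5 h in all 3 pairs (23.1% of all tested probe sets) and higher at 24 h in all 3 (33.3%). The order was 24 h, control, 5 h, and neighbours in that order did not differ beyond their spread.

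Muscle markers moved in both directions while FXYD1 varied. Of 10 listed, 8 had a probe set and 6 passed the filter. The creatine kinase CKM had mean intensities of 641.4 in control, 2249.1 at 5 h and 2651.7 at 24 h; it was higher at 5 h in all 3 replicate pairs (1.57, limma adjusted p = 0.277, and 0.0101 with the replicate block) and rose at 24 h by 1.99 (limma adjusted p = 0.0315). At 24 h the cardiac actin ACTC1 and the myosin light chain MYL1 fell, from 305.8 to 176.6 and from 172.4 to 62.7, and with the block the skeletal actin ACTA1 fell too, by 0.60 (adjusted p = 0.00234). The summed intensity of the 8 muscle markers was 1420 to 1642 in control, 1696 to 4022 at 5 h and 2472 to 3787 at 24 h. The higher sums in salt lay mainly in CKM. MYH1 and TNNT1 lay below the filter. The part of these genes in the FXYD1 values was not tested. The genes most like FXYD1 in profile over the 9 arrays were GNPTG (r = 0.968), AKR7A2 (0.962), GLMP (0.961) and SERPINB6 (0.958), of which GNPTG and GLMP encode lysosomal proteins or their processing; none was called at 24 h without the block (lowest limma adjusted p = 0.46).

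ATP1B1 (NCBI gene 519758) encodes the beta subunit found in most tissues and was bright here, at the 94.3 to 97.7 percentile of the probe sets of each array. Its intensity was 1651.6, 1600.7 and 2374.3 in control replicates 1 to 3. It was 2128, 1701.2 and 3223.7 at 5 h. It was 1854.5, 1634.4 and 2440.2 at 24 h. The groups overlapped, and in each the array numbered 3 was the highest; replicate number held 80.1% of the spread of its log2 values and group 15.0%.

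ATP1B1 stood at 0.30 ± 0.26 on the log2 scale at 5 h (95% interval -0.29 to 0.89; limma adjusted p = 1). At 24 h it stood at 0.08 ± 0.26 (95% interval -0.51 to 0.67; limma adjusted p = 0.929). It was higher at 5 h than control in all 3 replicate pairs, by 0.36, 0.09 and 0.44, a pattern that 17.5% of all tested probe sets shared, and 24 h lay below 5 h in all 3 pairs (28.7% of probe sets). With the replicate block the 5 h difference was 0.30 ± 0.09 with adjusted p = 0.0984. With the block and arrays centred on their median, ATP1B1 was higher at 5 h than in control by 0.38 (adjusted p = 0.047; 5.77% of all probe sets called) and differed by -0.37 between 24 h and 5 h (adjusted p = 0.0103; 44.5% called), while with the block and quantile normalisation neither difference was called (adjusted p = 0.149 and 0.189). The 5 h difference was therefore called under 1 of these 3 blocked fits. The genes most like it in profile were RB1 (r = 0.984), RAB6A (0.978), NUDT5 (0.975) and SEPTIN7 (0.970).

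ATP1B3 (NCBI gene 532844) encodes a beta subunit expressed in many cell types, and its brighter probe set lay at the 98.4 to 98.9 percentile of each array. It read 4113.9, 4245.2 and 4683.4 in control replicates 1 to 3. It read 4280.2, 4248 and 5017 at 5 h. It read 4347.1, 4718.6 and 4832.9 at 24 h. These values span a narrow range and the groups overlap. The log2 change was 0.05 ± 0.10 at 5 h (95% interval -0.17 to 0.28) and 0.09 ± 0.10 at 24 h (95% interval -0.13 to 0.32), with limma adjusted p = 1 and 0.678.

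The dimmer ATP1B3 probe set gave a different picture. It read 34.5, 22.5 and 126.4 in control, 26.2, 16.3 and 131.5 at 5 h, and 17.6, 17.4 and 128.6 at 24 h. In each group the array numbered 3 stood far above the other 2, and 97.3% of the spread lay between replicate numbers. On this probe set the log2 change was -0.15 ± 0.77 at 5 h and -0.26 ± 0.77 at 24 h, not called, so both probe sets of the gene give no call and opposite signs. The brighter probe set varied by replicate number in the same direction and far less, by 0.16 between arrays numbered 3 and the rest, against 1.93 for the dimmer one. The genes most like the brighter probe set were LASP1 (r = 0.984), TMEM14A (0.973), CRNKL1 (0.969) and RPLP0 (0.967).

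ATP1B2 (NCBI gene 282562), the adhesion molecule on glia, is the beta subunit of brain and was dim here. Its intensity was 14.5, 9.7 and 19.8 in control, 24.9, 17 and 27.2 at 5 h, and 16, 26.3 and 14.9 at 24 h. All lie near the floor, and the groups overlap, though within each replicate number the 5 h array was above control, by 0.42, 0.36 and 0.27 (17.5% of all tested probe sets did so in all 3 pairs). The log2 change was 0.35 ± 0.19 at 5 h (95% interval -0.07 to 0.78; limma adjusted p = 0.852) and 0.19 ± 0.19 at 24 h (limma adjusted p = 0.639), compressed by the constant of 16 at this level, and neither was called with the replicate block (adjusted p = 0.311 and 0.443). Among 8 markers of glia and nerve 5 had a probe set; GFAP, MBP and AQP4 lay below the filter, and S100B, which cartilage-like cells also express, had group means of 2639 to 3757. Of the 2 tested, 0 were called in limma against control (0 at an unadjusted p under 0.05), while with the replicate block S100B was higher at 24 h by 0.27 (adjusted p = 0.0478). The genes most like ATP1B2 were KIFBP (r = 0.907), SMN2 (0.898), RPL17 (0.874) and TTC9C (0.873).

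**Figure D3:**
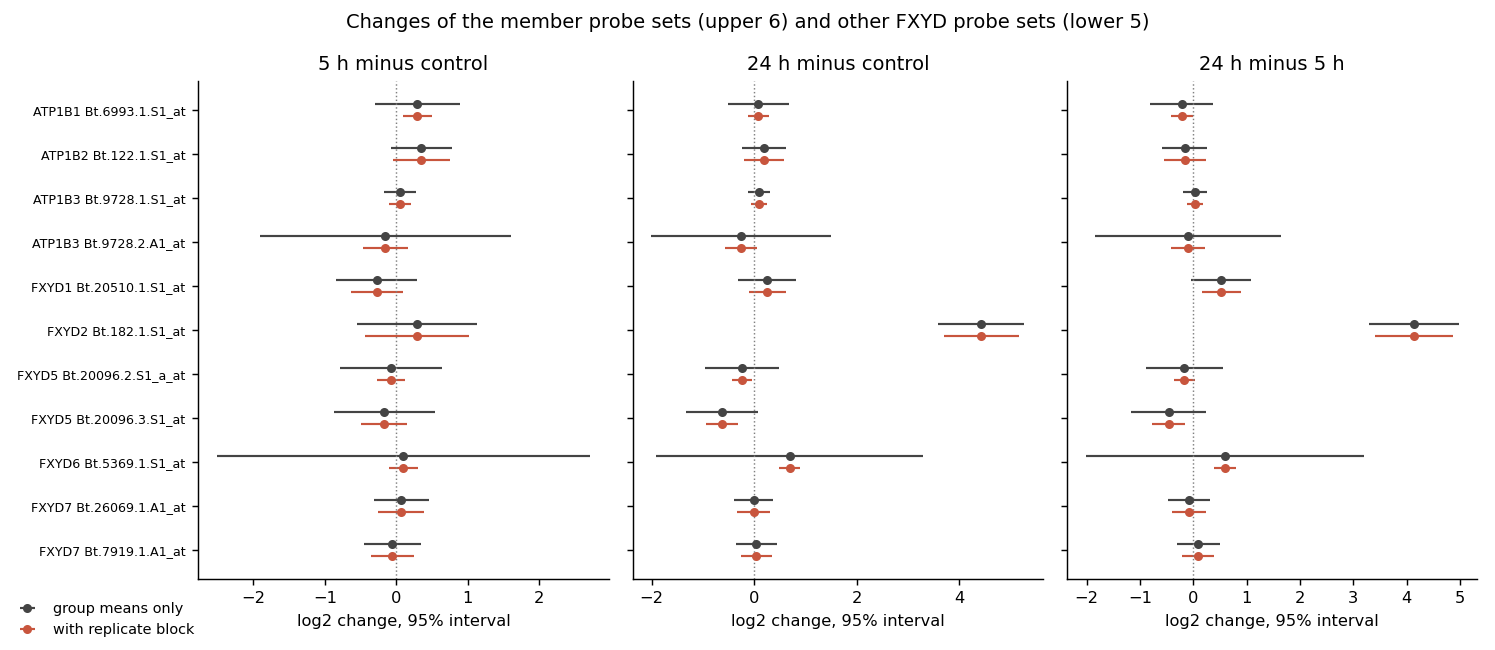
Log2 change with its 95% interval (horizontal axes; the scale differs between panels) of the 6 member probe sets and 5 probe sets of other FXYD genes in the 3 comparisons, from the fit of group means and from the fit with the replicate block. FXYD2 at 24 h lies clear of 0 in both fits; the interval of FXYD6 at 24 h shrinks from -1.92 to 3.30 without the block to a range above 0 with it.

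Of 10 other subunit and FXYD genes of the pump 4 had a single-gene probe set, 3 passed the filter and 0 were called in any comparison in limma without the block, with 0 at an unadjusted p under 0.05. ATP1B4 was near 0 on every array, at 0 to 6.6, and was not tested.

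FXYD6, a regulator known from the nervous system and the neighbour of FXYD2 in the bovine gene order, read 2425.7, 2117.5 and 283.8 in control. It read 2586.8, 2145.1 and 325.3 at 5 h, and 4001.1, 3631 and 431.7 at 24 h. Arrays numbered 3 were far below the others in every group, and within each number the 24 h array was the highest. Without a block its change at 24 h was 0.69 ± 1.15 (limma adjusted p = 0.818). With the replicate block FXYD6 rose by 0.69 ± 0.09 (adjusted p = 0.000513), and by 0.62 and 0.73 with the block and either scaling (adjusted p = 0.000942 and 0.000818). On the 6 arrays numbered 1 and 2 it rose by 0.75 ± 0.16 (adjusted p = 0.0272). At 5 h it stood at 0.10 with adjusted p = 0.614 under the block. Between the salt times it rose by 0.59 under the block (adjusted p = 0.000792). The other measured genes among the 4 protein-coding neighbours on either side of FXYD2, a set chosen after the values were seen, were RNF214, BACE1 and IL10RA. RNF214 and BACE1 were not called at 24 h without the block (0.08 and 0.43, limma adjusted p = 0.913 and 0.792), and IL10RA was below the filter. FXYD6 was not called in that fit either. The blocked fit of RNF214 and BACE1 is not given here, so they cannot be set against the blocked rise of FXYD6.

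**Figure D4:**
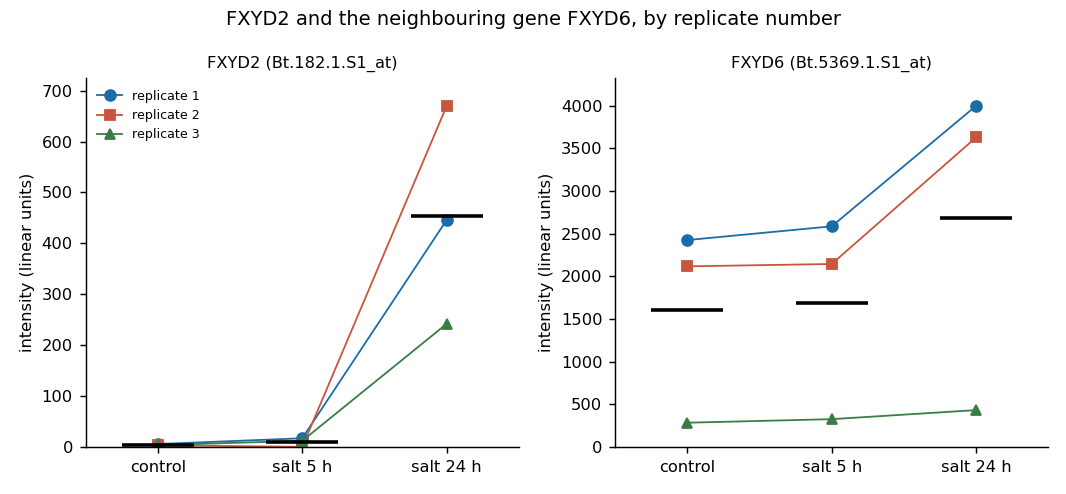
Intensity in linear units (vertical axes starting at 0) of FXYD2 and of its genomic neighbour FXYD6 on the 9 arrays, joined by replicate number, with group means as black bars. Both are highest at 24 h within every replicate number; FXYD6 is present in control and low on the arrays numbered 3, while FXYD2 is at 5.6 or less in control.

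FXYD5, dysadherin, a regulator that also affects cell adhesion, went the other way on its dimmer probe set. That probe set read 367.6, 191.9 and 167.1 in control and 190.6, 135.6 and 108.5 at 24 h. Its change was -0.64 ± 0.31 without a block (limma adjusted p = 0.267), and with the replicate block it fell by 0.64 ± 0.14 (adjusted p = 0.00677). Between the salt times its change with the block was -0.465 (adjusted p = 0.0238). The brighter probe set stood at -0.24 ± 0.09 with the block, which was not called (adjusted p = 0.061), nor with the block and quantile normalisation (-0.21, adjusted p = 0.081), but it was called with the block and median centring (-0.31, adjusted p = 0.0243). FXYD7, a brain regulator, had group means of 65.3 to 84.9 on its 2 probe sets and log2 changes between -0.08 and 0.09 in the 3 comparisons. FXYD1, FXYD7 and FXYD5 follow each other in the bovine gene order, and none of the 3 was called at 24 h without the block.

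**Figure D5:**
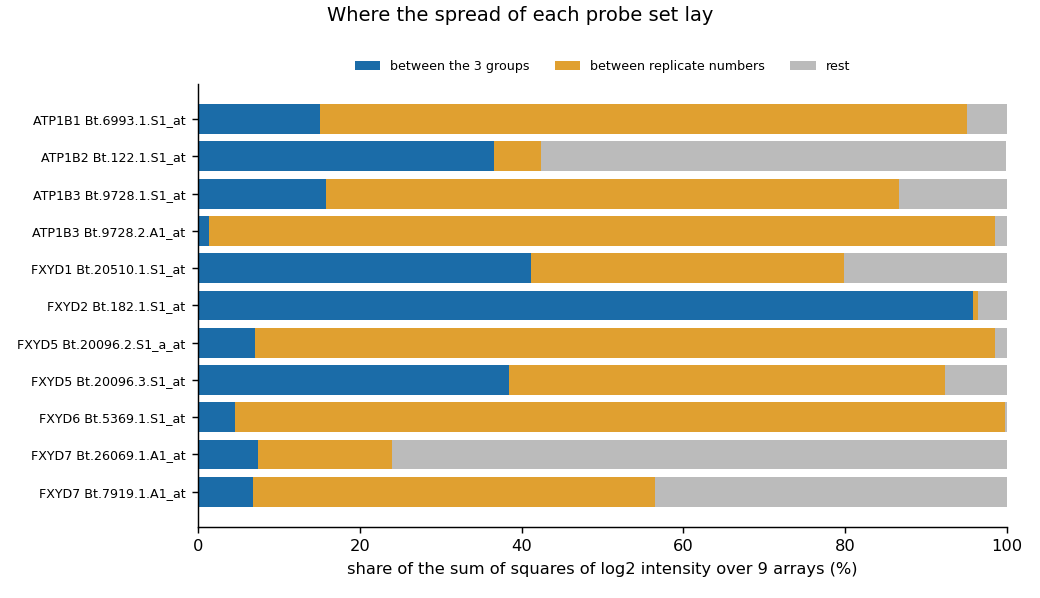
Share of the sum of squares of log2 intensity over the 9 arrays (horizontal axis, percent) that lies between the 3 groups, between the 3 replicate numbers and in the rest, for the 6 member probe sets and 5 of other FXYD genes. For FXYD2 the groups hold 95.8%; for ATP1B1, the ATP1B3 probe sets, FXYD6 and the brighter FXYD5 probe set the replicate number holds 70.9% or more.

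The share of spread between groups was 95.8% for FXYD2, 41.1% for FXYD1, 36.6% for ATP1B2, 15.8% and 1.29% for the ATP1B3 probe sets and 15.0% for ATP1B1. Over all tested probe sets the median share was 34.7% for group and 41.8% for replicate number. FXYD2 thus varied almost wholly by group, and 3 of the 4 beta probe sets mostly by replicate number.

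Around the pump, ion transport and osmotic genes were described from lists chosen with earlier results of these data known, each gene by its brightest probe set. Of 12 other P-type ion pumps 8 had a probe set and 5 were tested; 0 were called in limma in the 3 comparisons (0, 1 and 2 at an unadjusted p under 0.05), with a median of -0.23 at 24 h. With the replicate block the sarcoplasmic reticulum calcium pump ATP2A2 fell by 0.49 (adjusted p = 0.00121) and the plasma membrane calcium pump ATP2B1 by 0.47 (adjusted p = 0.00655) at 24 h. Of 8 tested regulators of the pump, 0 were called at 5 h or 24 h against control (1 and 1 at an unadjusted p under 0.05), with a median of 0.16 at 24 h. SGK1, a kinase that raises sodium pump and channel abundance at the membrane, had mean intensities of 753.6 in control, 727.3 at 5 h and 1336.2 at 24 h and was higher at 24 h in all 3 replicate pairs, by 0.35, 1.23 and 0.93 over control. It rose between 5 h and 24 h by 0.86 ± 0.24 (limma adjusted p = 0.0432), and against control it stood at 0.84 (limma adjusted p = 0.0631, and 0.00883 with the replicate block). Under the block 3 of the 8 regulators rose at 24 h against control. They were SGK1, its relative SGK3 by 1.19 (adjusted p = 0.00103), and the membrane anchor ankyrin ANK3 by 0.97 (adjusted p = 0.000685). In that blocked comparison 35.8% of all tested probe sets were called, and 18.3% of all tested probe sets were called higher, so such calls were common. The phosphatase subunit PPP2CA fell between 5 h and 24 h by 0.50 (limma adjusted p = 0.0407).

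A list of 33 carriers and channels for sodium, potassium or chloride was the longest; 24 had a probe set and 19 were tested; 1 rose and 1 fell at 5 h, and 2 rose and 1 fell at 24 h, with medians of -0.033 and 0.0041. With the block 2 rose and 2 fell at 5 h, and 4 rose and 3 fell at 24 h. The block called 5.86% of all tested probe sets at 5 h and 35.8% at 24 h. At 24 h, under the block alone, the water channel AQP1 rose by 0.97 (adjusted p = 0.000374). The sodium, potassium and chloride cotransporter SLC12A2 likewise rose by 0.85 (adjusted p = 0.0225). Also under the block alone, CLIC1 fell at 24 h by 0.33 (adjusted p = 0.0113). SLC12A1, which was dim, fell at 24 h by 0.54 (adjusted p = 0.0214 with the block). CLCN3 fell at 5 h by 0.61 (adjusted p = 0.033 with the block). The potassium channel KCNK5 was up at both times (2.46 and 2.73) and the phosphate cotransporter SLC20A1 down at both (-1.74 and -0.88), while SLC4A11 passed at 24 h only (5.70; 1.34 at 5 h with limma adjusted p = 0.231, and 0.0164 with the replicate block). Like FXYD2, SLC4A11 had most of its increase after 5 h, and between 5 h and 24 h it rose by 4.35 (limma adjusted p = 0.00154). Of 13 osmotic response genes 6 were tested; 1 rose at 5 h (SLC38A2, 0.88) and 3 rose at 24 h (AKR1B1, 1.67; HSPA1A, 1.11; HSPH1, 0.39). With the block 3 rose at 5 h and 4 at 24 h. Between 5 h and 24 h AKR1B1 rose by 1.27 and SLC38A2 fell by 0.57. AKR1B1 stood at 0.40 at 5 h (limma adjusted p = 0.74, and 0.0279 with the replicate block). FXYD2 was thus not called at 5 h in either fit, whereas KCNK5, SLC20A1 and SLC38A2 were called at 5 h in both. FXYD2 lay near the floor of the array in control and at 5 h, so a small early change could not be decided.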

How the data were processed

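The authors deposited intensities on a linear scale for 24128 probe sets on 9 one-colour Affymetrix bovine arrays. The submitters' processing notes name PLIER and Affymetrix Expression Console; versions, settings and any scaling of arrays are not given there. Values were analysed as log2(value + 16) with no further scaling, 112 control probe sets were left out, and a filter on the mean log2 value at the 25th percentile left 18012. All 6 member probe sets passed. One linear model of group means over the 9 arrays was fitted in limma 3.58.1 (R 4.3.3; eBayes with trend), and every adjusted p is Benjamini-Hochberg over all tested probe sets. The number of arrays limits the precision.

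The annotation gives 1 symbol for 13292 probe sets, several for 86 and none for 10638; 13263 were matched by gene number to the RefSeq bovine genes of assembly ARS-UCD2.0, which changed 0 symbols and was also used for gene order. Replicates are numbered alike in each group. Deviations from the group means correlated at 0.564 to 0.896 between arrays of the same number and at -0.78 to 0.545 between others, so the numbers were taken as pairs, from the data and the shared numbers.

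Members and gene lists were chosen with earlier results of these data known. Named were all members, the measured genes of the other pump and FXYD list, up to 4 called genes with the smallest adjusted p per other list and comparison, and the 4 genes most like each member; genes of other lists called only with the block and the marker genes printed were named after their values were seen. Alternatives were other pseudocounts, filters, scalings, the block, pairwise fits, no intensity trend and each array left out. Markers of annulus fibroblasts (2 of 4 tested rose at 24 h, COL12A1 and THY1), endothelium (0 of 4) and red cells (0 of 1) were also counted; these zeros are from limma against control, with 0 and 0 at an unadjusted p under 0.05. With the block TEK of the endothelial markers rose at 24 h, and COL1A1 and COL1A2 of the annulus markers fell.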

Additional observations from a re-analysis of the deposited data

Results flagged for a closer look

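FXYD2 responded differently at the 2 salt times by the test of the difference itself: it was higher at 24 h than at 5 h by 4.14 ± 0.37 on the log2 scale (limma adjusted p = 0.0018), in 3 of 3 replicate pairs.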

How the results depend on the processing

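FXYD2 kept its rise at 24 h, against control and against 5 h, in every alternative that tested it. The filter at the median left out FXYD2, FXYD1, ATP1B2 and the dimmer ATP1B3 probe set. Of the probe sets of ATP1B1 and ATP1B3 that stayed, 0 were called there. The change of FXYD2 ranged from 2.83 to 6.36 against control, set by the pseudocount. With the replicate block 2 members were called between 5 h and 24 h (FXYD2 and FXYD1, 0.53), and FXYD2 alone at 24 h; the block changed no other member's call. With the block and median centring, chosen after seeing the data, 1 member was called at 5 h (ATP1B1, 0.38) and 2 between 5 h and 24 h (FXYD2 and ATP1B1, -0.37). Values that were never called changed sign: ATP1B3 between the salt times with median centring, with or without the block (-0.11), ATP1B3 as the mean of its probe sets (-0.051, -0.082 and -0.032 in the 3 comparisons), and ATP1B2 between the salt times on arrays numbered 1 and 2 (0.0021).

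With an array left out in turn, ATP1B1 ranged from -0.083 to 0.26 at 24 h and from -0.42 to 0.034 between the salt times. The bright ATP1B3 probe set ranged from -0.026 to 0.11 at 5 h and from -0.0018 to 0.12 between the salt times, and the dim one from -0.82 to 0.41 at 5 h, -0.96 to 0.31 at 24 h and -0.81 to 0.56 between them. The causes were not tested.

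The lists beside the members held 3, 6 and 6 called genes in the 3 comparisons. These became 7, 17 and 15 with the block, 8, 21 and 16 with block and centring, 5, 17 and 14 with block and quantile normalisation, and 2 to 3, 3 to 5 and 3 to 6 with an array left out. Over all probe sets 87, 1550 and 2551 were called; 1056, 6452 and 7884 with the block, 57 at 5 h with centring, 13 and 792 on the 6 arrays compared, and 15 to 126, 304 to 1533 and 854 to 2429 with an array left out. Centring moved the split of higher and lower calls from 42 and 45 to 34 and 23 at 5 h, from 771 and 779 to 503 and 827 at 24 h, and from 1443 and 1108 to 806 and 1608 between the salt times.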
